A study of Homo sapiens with 18 samples.

Results

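The nuclear receptor family was read here apart from the thyroid hormone receptors and their usual partners. The genes are those annotated to 36 symbols: the peroxisome proliferator-activated receptors (PPARs), liver X receptors (LXRs), PXR and CAR, retinoic acid receptors, RORs, orphan receptors, steroid receptors, estrogen-related receptors, HNF4G and RXRG. The thyroid hormone receptors, RXRA, RXRB, VDR, FXR, SHP, the REV-ERBs and HNF4A were not members. Each gene was represented by its single-gene feature on the array, the brightest over 18 arrays where there were several. This gave 31 of the 36 genes, among 20546 features that carried a gene symbol. NR1H2, NR1I2, NR2F2 and NR0B1 were not analysed here. RARA was left out because its only feature is shared with BCOR. ESR1 had 2 single-gene features, and the one at a mean log2 level of 4.38 was used rather than the one at 3.98.

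The cells were HepG2, an established human liver carcinoma line. Stable transformants carried ectopic TRα1 (labelled TRa1 or aWT), ectopic TRβ1 (TRb1 or bWT) or the empty plasmid (labelled NR, the control pool). All 3 populations had gone through G418 co-selection. They were pools of 6 TRα1 clones, 12 TRβ1 clones and 11 control clones. For 6 h each pool received either 100 nM T3, the active form of thyroid hormone, or its ethanol vehicle, in medium whose 10% serum had been stripped of hormones. There were 3 biological repeats per group, 6 groups and 18 arrays. There was 1 pool per construct, so a difference between pools cannot be told apart from a difference between sets of clones.

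Nuclear receptors are transcription factors that bind DNA, most of them through a zinc finger domain that reads the hexamer AGGTCA or a close variant. Many are switched by small lipophilic ligands such as steroids, fatty acids, oxysterols, retinoids or bile acids, while orphan receptors have no settled ligand. In hepatocytes they govern lipid and glucose metabolism, bile acid synthesis and the clearance of drugs. Several of them bind DNA as a heterodimer with RXR, the partner that thyroid hormone receptors also use.

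The promoters of PPARG and NR5A2 are shown because these genes later differed between treatments or pools in a fit with the repeat number as a block. NR2F6, which also differed in that fit, had no window here and was not searched. Both promoters hold AGGTCA, the hexamer that thyroid hormone receptors also read, marked in capitals. The windows are the 250 bases before an annotated start, from RefSeq on GRCh38.p14, all on the plus strand, at chr3:12287118-12287367 and chr3:12288810-12289059 for PPARG and chr1:200027460-200027709 for NR5A2.
PPARG, first window: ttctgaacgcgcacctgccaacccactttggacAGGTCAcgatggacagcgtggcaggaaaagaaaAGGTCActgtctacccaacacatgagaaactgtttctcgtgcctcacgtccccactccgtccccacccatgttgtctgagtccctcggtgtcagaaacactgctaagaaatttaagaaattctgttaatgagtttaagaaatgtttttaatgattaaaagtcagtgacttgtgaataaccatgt
PPARG, second window: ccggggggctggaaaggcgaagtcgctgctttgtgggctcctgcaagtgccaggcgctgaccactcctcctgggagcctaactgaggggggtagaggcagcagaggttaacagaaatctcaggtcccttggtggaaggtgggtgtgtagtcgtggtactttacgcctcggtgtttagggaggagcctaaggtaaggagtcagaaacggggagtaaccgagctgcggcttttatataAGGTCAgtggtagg
NR5A2: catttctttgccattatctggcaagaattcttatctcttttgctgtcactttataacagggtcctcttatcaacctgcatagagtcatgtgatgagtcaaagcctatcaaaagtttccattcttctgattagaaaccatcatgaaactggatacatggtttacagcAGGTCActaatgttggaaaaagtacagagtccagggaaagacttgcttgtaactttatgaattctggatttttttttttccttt

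AGGTCA was searched on both strands in the 250 bases before each of 74 starts of 28 of the 31 receptor genes. It was present in 12 windows (16.2%), in 8 of the 28 genes: PPARG, NR5A2, RXRG, ESRRG, RARB, NR2E1, NR1H3 and ESR2. Over all 35116 windows of the table it was present in 12.1%, and in 14.6% of 27305 genes. The receptor genes had more windows per gene than all genes, so the shares of genes are not comparable. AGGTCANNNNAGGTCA, the spaced direct repeat of thyroid hormone response elements, was in 0 of the 74 windows and in 0.0142% of all windows. A match of letters is a description of the window and not a bound site.

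The levels in the deposited table are log2 values after RMA, so a difference of 1 is a doubling. Array medians lay between 5.31 and 5.49. Of the 31 genes, 17 had a mean level under 6.13, the median over the tested features, and no detection calls were used, so some of these features may carry background. Mean levels ran from 3.19 (ESRRG) to 8.85 (NR2F6), and levels of different features are not comparable with each other. The 10 hepatocyte markers measured had mean levels from 10.7 to 12.7. Among 4 blood markers PTPRC was at 2.46, CD3E at 3.94 and HBB at 4.55, while LYZ was at 11.8. The 7 endothelial and fibroblast markers lay between 2.20 and 6.33.

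The genes of the introduced receptors were read first. THRA, which encodes TRα1, was at 7.39 to 7.55 on vehicle and 7.71 to 8.22 with T3 in the TRα1 pool, against 6.95 to 7.19 and 6.77 to 7.18 in the control pool. The difference was 0.44 on vehicle (limma adjusted p = 0.533, and 0.128 with the repeat number as a block) and 0.95 with T3 (0.00392 and 0.000889), and the groups did not overlap under either treatment. THRB, which encodes TRβ1, was at 6.88 to 7.01 on vehicle and 7.39 to 7.48 with T3 in the TRβ1 pool, against 6.41 to 6.90 and 6.90 to 7.20 in the control pool. The difference was 0.30 on vehicle (limma adjusted p = 1, and 0.332 with the block) and 0.35 with T3 (1 and 0.218). THRB thus passed an adjusted p of 0.05 in neither fit in the TRβ1 pool, and its groups overlapped on vehicle. Whether these features read the introduced constructs was not tested.

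**Figure D1:**
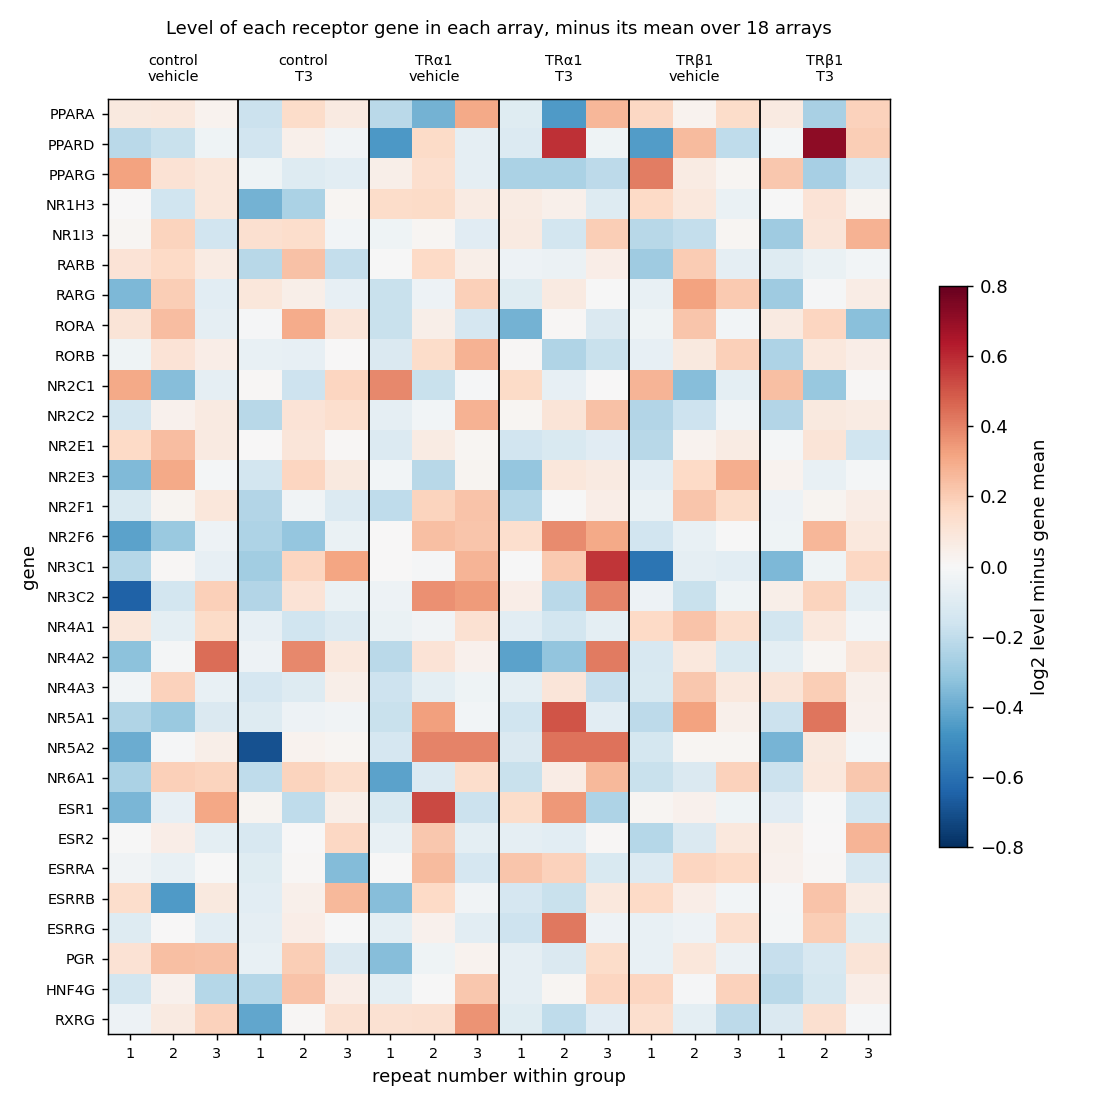
The log2 level of each of the 31 receptor genes in each array, minus that gene's mean over 18 arrays (colour, log2); columns are arrays by group and repeat number. Low cells in repeat 1 stand out for NR5A2, for NR3C1 in the TRβ1 and control pools and for NR3C2 in the control pool. High cells stand out for PPARD in repeat 2 of the T3-treated receptor pools and for NR2F6 in the TRα1 pool. Most other differences are small.

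T3 was compared with vehicle within each pool and as the mean of the 3 pools. A feature was called where limma gave an adjusted p under 0.05, with Benjamini-Hochberg adjustment over all 20546 features. None of the 31 receptor genes was called in any of the 4 T3 comparisons, 0 of 31 against a background of 0.131% of features in the TRα1 pool, 0.073% in the TRβ1 pool, 0.00973% in the control pool and 0.423% in the mean of the pools. At an unadjusted limma p under 0.05 there were 1, 1, 0 and 2 receptor genes, respectively, beside 2.55%, 2.22%, 2.03% and 3.82% of all features. Same-numbered arrays deviated together, so the repeat number was also used as a block. In that fit 1 of 31 was called in the mean of the pools, PPARG, against a background of 1.69% (0.331% for lower features alone), and 0 of 31 in the single pools against 0.667%, 0.477% and 0.0973%. The unadjusted counts were then 4, 4, 1 and 7 of 31, beside 6.79%, 6.18%, 5.95% and 10.3% of all features.

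These data also bound the size of the T3 differences in array level. In the mean of the 3 pools, the 95% intervals of all 31 receptor genes from the fit with the block lay between −0.37 and 0.43. That range equals at most 1.30-fold lower, the bound of PPARG, and 1.35-fold higher, the bound of PPARD. Each interval has 95% coverage for its own gene, and the range over all 31 genes does not have that coverage jointly. Without the block the intervals lay between −0.41 and 0.54. In single pools without the block they ran from −0.63 to 0.75 with TRα1 and −0.55 to 0.90 with TRβ1. In the control pool they ran from −0.56 to 0.58. For features that may carry background, the intervals bound the array signal only. The median difference over the 31 genes was −0.03, beside −0.01 over all features. The median absolute difference was 0.06 for the receptor genes and 0.05 for all features.

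**Figure D2:**
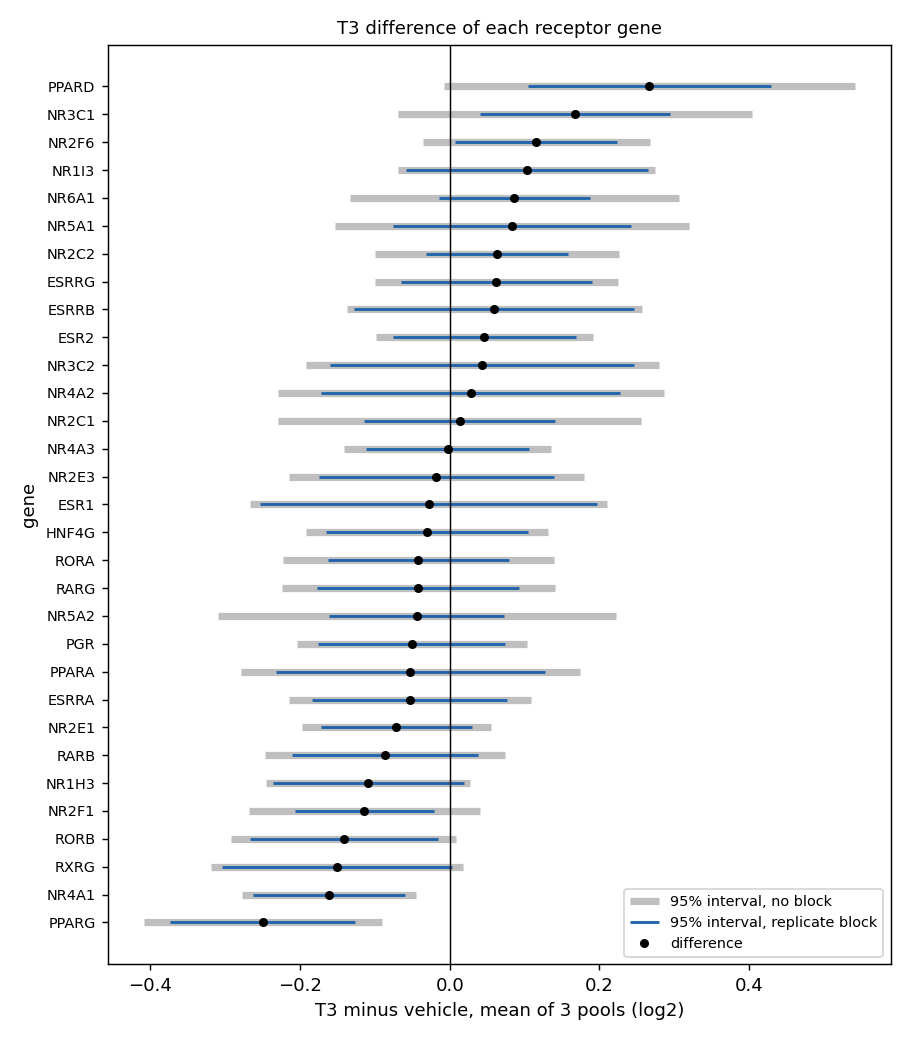
T3 minus vehicle as the mean of the 3 pools (log2) for each of the 31 receptor genes, with 95% intervals from limma without a block (wide grey bars) and with the repeat number as a block (narrow blue bars). PPARD at 0.27 and PPARG at −0.25 are the extremes, and 18 of the 31 points lie below 0.

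PPARG, the fatty acid receptor that drives adipocyte differentiation and is the target of the thiazolidinediones, was lower with T3. In the TRα1 pool its log2 level was 6.12, 6.20 and 6.00 on vehicle and 5.82, 5.82 and 5.87 with T3. In the TRβ1 pool the values were 6.48, 6.14 and 6.09 on vehicle and 6.29, 5.81 and 5.95 with T3. In the control pool they were 6.39, 6.19 and 6.16 on vehicle and 6.04, 5.97 and 5.99 with T3. All 3 T3 arrays lay below all 3 vehicle arrays in the TRα1 and control pools, while the groups overlapped in the TRβ1 pool. The mean difference over the pools was −0.25 ± 0.07 (SE), 1.19-fold, with the T3 array lower in 9 of 9 same-numbered pairs. It was not called without a block (limma adjusted p = 0.423) and was called with it (limma adjusted p = 0.0398, 95% interval −0.37 to −0.13). The per-pool differences were −0.27 with TRα1, −0.23 with TRβ1 and −0.25 in the control pool, which carries no ectopic receptor. The call with the block held in 3 of 18 fits that left out 1 array, those without TRα1 vehicle 1, TRα1 T3 3 or TRβ1 T3 1. The difference ranged from −0.28 to −0.22 over the 18 fits, with limma adjusted p between 0.0205 and 0.102.

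PPARD, the widely expressed receptor of the same subfamily, differed the other way. Its level in the TRα1 pool was 6.53, 7.15 and 6.92 on vehicle and 6.88, 7.58 and 6.96 with T3. In the TRβ1 pool it was 6.55, 7.25 and 6.79 on vehicle and 6.98, 7.71 and 7.19 with T3. In the control pool it was 6.78, 6.82 and 6.96 on vehicle and 6.84, 7.04 and 6.97 with T3. The groups overlapped in every pool, and repeat 2 of both receptor pools was the highest array on vehicle as well as with T3. The mean difference was 0.27 ± 0.13 (SE), with T3 higher in 9 of 9 pairs, and was called neither without the block (limma adjusted p = 1) nor with it (limma adjusted p = 0.123). PPARA, the liver's main fatty acid sensor, had a mean difference of −0.05.

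NR4A1 (NUR77), an immediate-early orphan receptor, also had T3 values under their vehicle partners in 9 of 9 pairs. Its values were 6.42, 6.45 and 6.60 on vehicle and 6.39, 6.33 and 6.40 with T3 in the TRα1 pool. They were 6.64, 6.70 and 6.62 on vehicle and 6.33, 6.56 and 6.46 with T3 in the TRβ1 pool. They were 6.56, 6.40 and 6.63 on vehicle and 6.41, 6.32 and 6.37 with T3 in the control pool. The groups did not overlap in the receptor pools and overlapped in the control pool. The mean difference was −0.16 ± 0.05 (SE), not called without the block (limma adjusted p = 0.677) or with it (0.143). The other members of its subfamily, NR4A2 and NR4A3, had mean differences of 0.03 and −0.003. T3 was higher in 9 of 9 pairs for 1 of 31 receptor genes (3.23%, PPARD) beside 2.04% of all features. It was lower in 9 of 9 pairs for 2 of 31 (6.45%) beside 1.8% of all features. NR4A1 was singled out after its values were seen.

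**Figure D3:**
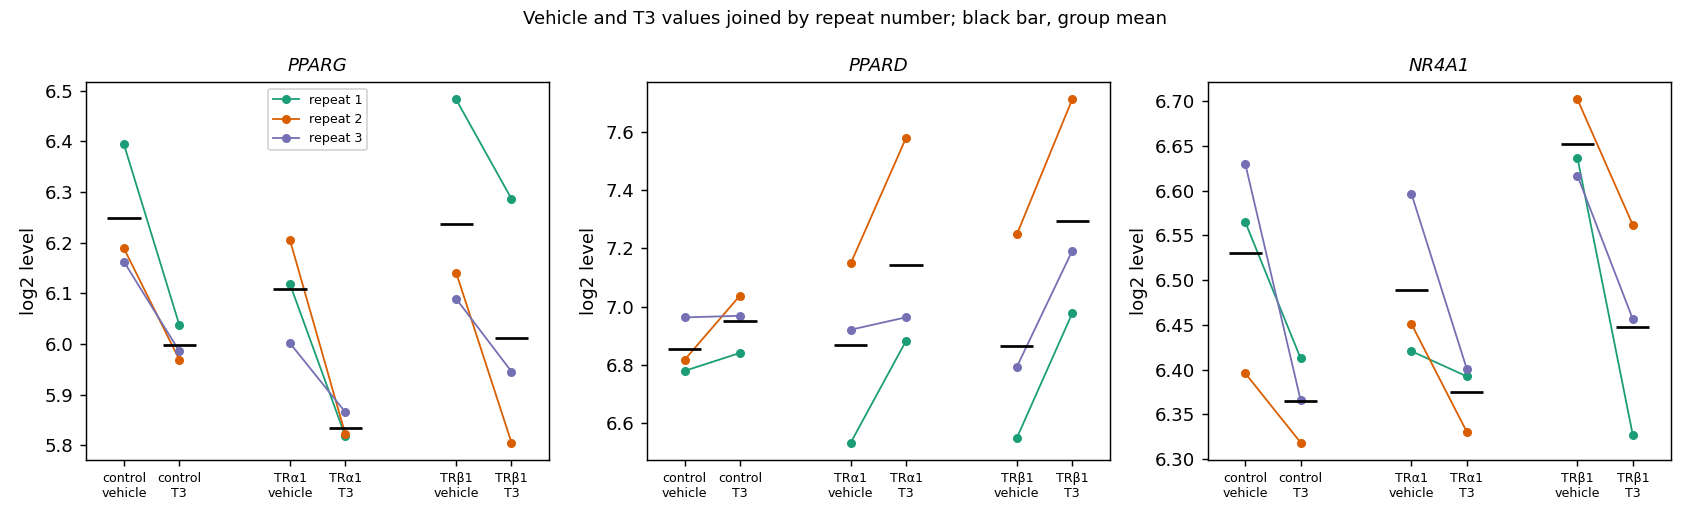
Log2 levels of PPARG, PPARD and NR4A1 on vehicle and with T3 in each pool; each line joins arrays of the same repeat number and black bars are group means of 3. All 9 lines fall for PPARG and NR4A1 and all 9 rise for PPARD, where the lines of repeat 2 in the TRα1 and TRβ1 pools lie well above the others.

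Among the remaining ligand-activated receptors, RXRG, the RXR form found mainly in muscle and brain, had the largest single-pool difference with TRα1. Its level was 3.49, 3.49 and 3.72 on vehicle and 3.26, 3.16 and 3.27 with T3, groups that did not overlap. The difference was −0.33 ± 0.14 (SE; limma adjusted p = 1), and both groups were among the dimmest features here. In the TRβ1 pool the values were 3.50, 3.28 and 3.15 on vehicle and 3.24, 3.49 and 3.35 with T3, a difference of 0.05. In the control pool they were 3.32, 3.43 and 3.55 on vehicle and 2.94, 3.37 and 3.48 with T3. The control mean was also lower with T3, at 3.27 against 3.43 on vehicle. RXRG groups were thus apart in the TRα1 pool and overlapped in the others, and RXRG was called in no pool.

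RARG, a retinoic acid receptor, was at 4.53, 4.91 and 4.80 on vehicle and 4.30, 4.58 and 4.65 with T3 in the TRβ1 pool. In the TRα1 pool it was at 4.41, 4.55 and 4.78 on vehicle and 4.49, 4.66 and 4.59 with T3. In the control pool it was at 4.23, 4.78 and 4.50 on vehicle and 4.68, 4.64 and 4.52 with T3. The difference in the TRβ1 pool was −0.24 ± 0.15 (SE; limma adjusted p = 1), and the groups overlapped in every pool. RARB had a mean difference of −0.09.

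NR1H3 (LXRα), the oxysterol receptor that turns on cholesterol efflux and fatty acid synthesis, was at 6.56, 6.40 and 6.65 on vehicle and 6.19, 6.31 and 6.57 with T3 in the control pool. It was at 6.71, 6.72 and 6.62 on vehicle and 6.63, 6.60 and 6.46 with T3 in the TRα1 pool. It was at 6.72, 6.64 and 6.51 on vehicle and 6.56, 6.67 and 6.58 with T3 in the TRβ1 pool. Its mean T3 difference was −0.11, with T3 higher in 2 of 9 pairs. NR1I3 (CAR), the receptor that induces drug-metabolising enzymes, had a mean difference of 0.10 at a level of 3.86.

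NR3C1, the glucocorticoid receptor, had the third largest mean difference. Its values in the TRα1 pool were 7.53, 7.52 and 7.80 on vehicle and 7.52, 7.73 and 8.09 with T3. In the TRβ1 pool they were 6.94, 7.46 and 7.44 on vehicle and 7.16, 7.49 and 7.69 with T3. In the control pool they were 7.29, 7.54 and 7.46 on vehicle and 7.25, 7.70 and 7.84 with T3. The groups overlapped in every pool, with T3 higher in 7 of 9 pairs. The mean difference was 0.17 ± 0.11 (SE), with limma adjusted p = 1 without the block and 0.266 with it, and it was 0.17 in each of the 3 pools.

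Other steroid receptors and the estrogen-related receptors differed less. PGR, the progesterone receptor, was at 3.77, 3.90 and 3.89 on vehicle and 3.60, 3.85 and 3.54 with T3 in the control pool, a difference of −0.19 between overlapping groups. The mineralocorticoid receptor NR3C2 had a mean T3 difference of 0.04, the oestrogen receptors ESR1 and ESR2 of −0.03 and 0.05. The estrogen-related receptors, constitutively active regulators of mitochondrial genes with PGC-1, had −0.05 (ESRRA), 0.06 (ESRRB) and 0.06 (ESRRG). None of these was called in either fit.

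The orphan receptors gave a similar picture. NR5A1 (SF-1), the steroidogenic factor, was the only receptor gene whose T3 arrays all lay above the vehicle arrays in any pool, the control pool, at 7.06, 7.01 and 7.19 on vehicle and 7.20, 7.26 and 7.28 with T3. That difference was 0.16 (limma adjusted p = 1). RORB and RORA, receptors that bind clock genes, had mean differences of −0.14 and −0.04. NR2C1 and NR2C2, which bind direct repeats of the hexamer, had 0.01 and 0.06. NR2F1 (COUP-TFI), a repressor that competes for those repeats, had −0.11, and NR2F6 (EAR2) had 0.12. NR5A2 had −0.04, NR6A1 0.09, NR2E1 −0.07, NR2E3 −0.02 and HNF4G −0.03.

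Groups that did not overlap between treatments were counted for each pool. In the TRα1 pool there were 3 such receptor genes, PPARG, NR4A1 and RXRG, all lower with T3, beside 5.26% of all features in either direction. In the TRβ1 pool there was 1, NR4A1, beside 5.04%, and in the control pool 2, NR5A1 and PPARG, beside 6.16%. The shares of the receptor genes were 9.68%, 3.23% and 6.45%.

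Whether the T3 difference depended on the receptor was tested as a difference of differences. None of the 31 receptor genes was called for TRα1 against control, TRβ1 against control or TRβ1 against TRα1, without or with the block. The background was 0% of features in all 3 without the block, and 0.0292%, 0% and 0% with it. At an unadjusted limma p under 0.05 there were 0 receptor genes in each without the block, beside 1.39%, 1.34% and 1.09% of all features. With the block there were 0, 2 and 1, beside 3.75%, 4.06% and 3.01%.

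The 3 largest values in each of these tests were as follows. For TRα1 against control, PGR had 0.29 ± 0.18 (SE), NR3C2 −0.29 ± 0.27 and NR4A2 −0.19. The T3 differences of PGR behind this were 0.10 with TRα1 and −0.19 in the control pool, those of NR3C2 −0.15 and 0.14, and those of NR4A2 −0.09 and 0.11. For TRβ1 against control, HNF4G had −0.35 ± 0.19, RARG −0.34 ± 0.21 and PPARD 0.33 ± 0.32. HNF4G, a relative of HNF4A, was at 6.64, 6.47 and 6.66 on vehicle and 6.26, 6.33 and 6.53 with T3 in the TRβ1 pool. It was at 6.33, 6.51 and 6.25 on vehicle and 6.25, 6.70 and 6.53 with T3 in the control pool. The T3 difference of HNF4G was −0.22 with TRβ1 and 0.13 in the control pool, with overlapping groups in both.

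For TRβ1 against TRα1, RXRG had 0.38 ± 0.19 (SE), NR3C2 0.28 ± 0.27 and ESR2 0.27 ± 0.17. ESR2 was at 3.09, 3.21 and 3.41 on vehicle and 3.36, 3.33 and 3.60 with T3 in the TRβ1 pool. It was at 3.27, 3.54 and 3.25 on vehicle and 3.25, 3.24 and 3.33 with T3 in the TRα1 pool. NR4A2 was at 3.91, 4.23 and 4.15 on vehicle and 3.69, 3.80 and 4.53 with T3 in the TRα1 pool, and at 3.79, 4.10 and 4.57 on vehicle and 4.08, 4.50 and 4.20 with T3 in the control pool. The intervals of these tests are wide. That of PPARD for TRβ1 against control ran up to 1.01 without the block and up to 0.73 with it.

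The pools were then compared at fixed treatment. Without a block 0 of 31 receptor genes were called for TRα1 against control on vehicle, beside 0.307% of all features, and 0 of 31 with T3, beside 0.433%. For TRβ1 against control the counts were 0 of 31 on vehicle, beside 0.117%, and 0 of 31 with T3, beside 0.156%. For TRβ1 against TRα1 they were 0 of 31 on vehicle, beside 0%, and 0 of 31 with T3, beside 0.0438%. Without the block, receptor genes at an unadjusted limma p under 0.05 numbered 3 and 2 for TRα1 against control (vehicle and T3), beside 4.76% and 5.14% of all features. They numbered 0 and 2 for TRβ1 against control, beside 3.51% and 3.65%, and 0 and 0 for TRβ1 against TRα1, beside 2.89% and 2.78%. With the block, TRα1 against control gave 1 of 31 on vehicle (NR2F6, beside 2.07%) and 2 of 31 with T3 (NR2F6 and NR5A2, beside 2.83%). The block gave 0 of 31 for TRβ1 against control, beside 0.735% on vehicle and 0.871% with T3. It also gave 0 of 31 for TRβ1 against TRα1, beside 0.54% and 0.604%. The unadjusted counts with the block were 4 and 4, 2 and 3, and 4 and 2 in these comparisons, beside 13.6% and 14.8%, 10.8% and 12%, and 7.71% and 8.27% of all features. All calls with the block were higher in the TRα1 pool, as were 1.38% of all features on vehicle and 1.82% with T3.

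NR2F6, a COUP-TF relative that represses transcription and can bind thyroid hormone response elements, was highest in the TRα1 pool. On vehicle its level was 8.86, 9.09 and 9.07 with TRα1, 8.70, 8.79 and 8.85 with TRβ1, and 8.42, 8.55 and 8.81 in the control pool. With T3 it was 8.99, 9.23 and 9.15 with TRα1, 8.82, 9.12 and 8.94 with TRβ1, and 8.61, 8.55 and 8.80 in the control pool. Every TRα1 array lay above every control array under the same treatment. The TRβ1 arrays lay between, below all TRα1 arrays on vehicle and above all control arrays with T3.

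The difference between TRα1 and control in NR2F6 was 0.41 ± 0.12 (SE) on vehicle, 1.33-fold. It was not called without the block (limma adjusted p = 0.403) and was called with it (0.0236). With T3 the difference was 0.47 ± 0.12 (SE), 1.39-fold, with limma adjusted p = 0.17 without the block and 0.00722 with it. With the block, the vehicle call held in 1 of 6 fits that left out 1 array of the comparison, the one without control vehicle 3. The value there ranged from 0.37 to 0.49 and the limma adjusted p from 0.0217 to 0.131. The T3 call held in 5 of 6 such fits and was lost without control T3 2, where the difference was 0.39 (limma adjusted p = 0.0587). For TRβ1 against control the difference with T3 was 0.31 ± 0.12 (SE; limma adjusted p = 1, and 0.141 with the block). In a fit with only the arrays compared and the block, neither TRα1 difference was called (limma adjusted p = 0.206 on vehicle and 0.112 with T3).

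NR5A2 (LRH-1), the receptor that maintains bile acid synthesis genes in liver, was higher in the TRα1 pool than in the control pool in every same-numbered pair. On vehicle its level was 6.48, 7.01 and 7.01 with TRα1, 6.47, 6.63 and 6.63 with TRβ1, and 6.21, 6.60 and 6.66 in the control pool. With T3 it was 6.50, 7.05 and 7.05 with TRα1, 6.24, 6.69 and 6.60 with TRβ1, and 5.91, 6.64 and 6.63 in the control pool. The first array was the lowest in every group, and TRα1 and control groups overlapped because of it. That made 3 of 3 pairs under both treatments. The difference was 0.34 on vehicle (limma adjusted p = 1, and 0.0912 with the block). With T3 it was 0.47 ± 0.22 (SE), 1.39-fold, with limma adjusted p = 0.952 without the block and 0.0129 with it. That call held in 3 of 6 fits that left out 1 array. It was lost without TRα1 T3 2 (0.46, limma adjusted p = 0.0603), without TRα1 T3 3 (0.45, 0.068) and without control T3 1 (0.37, 0.0567). It was also lost in the fit with only the arrays compared and the block (limma adjusted p = 0.0859). TRβ1 was below TRα1 in NR5A2 by a difference of −0.26 on vehicle and −0.35 with T3 (limma adjusted p = 1 for both).

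**Figure D4:**
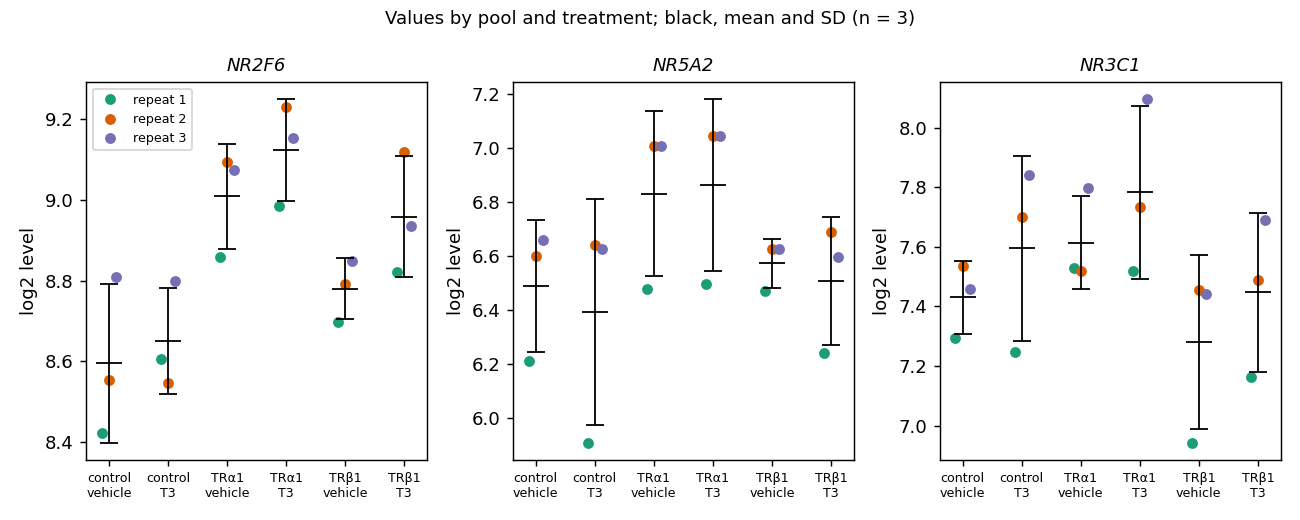
Log2 levels of NR2F6, NR5A2 and NR3C1 in each group; coloured points are the 3 repeats, and black bars are means with SD (n = 3). NR2F6 is higher in every TRα1 array than in the control arrays of the same treatment, while repeat 1 lies lowest in most groups of NR5A2 and NR3C1.

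Some cell type markers differed in the same comparisons. For TRα1 against control, 1 of 10 hepatocyte markers was called lower with the block on vehicle (TTR) and 3 with T3: ALB by −0.27 (limma adjusted p = 0.0467), AFP by −0.37 (0.0122) and TTR. Without the block only TTR with T3 was called. APOA1, SERPINA1, TF, FGB and KRT8 were higher with TRα1 under both treatments and were not called. APOA1 was higher by 0.35 on vehicle and 0.28 with T3. The mean log2 level over the 10 hepatocyte markers was 11.82 to 11.96 on vehicle and 11.82 to 11.88 with T3 in the TRα1 arrays, and 11.84 to 11.95 and 11.91 to 11.96 in the control arrays. Of 4 blood markers, LYZ was called lower with the block, by −0.37 on vehicle (limma adjusted p = 0.0335) and −0.47 with T3 (0.00569). The mean over the 4 was 5.55 to 5.70 and 5.57 to 5.62 with TRα1, and 5.67 to 5.96 and 5.74 to 5.81 in the control pool. Of 7 endothelial and fibroblast markers, PDGFRB was called lower with T3 with the block (−0.38, limma adjusted p = 0.025), where the mean over the 7 was 4.19 to 4.23 with TRα1 and 4.22 to 4.40 in the control pool. Their part in the NR2F6 and NR5A2 differences was not tested.

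NR3C1 was lower in the TRβ1 pool than in the TRα1 pool by a difference of −0.33 on vehicle, where the groups did not overlap. The limma adjusted p was 1 without the block and 0.255 with it. With T3 the values overlapped, and the adjusted p was 1 and 0.246.

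NR3C2 had the largest pool difference on vehicle, and in overlapping groups. It was at 4.22, 4.63 and 4.60 on vehicle with TRα1, 4.22, 4.08 and 4.22 with TRβ1, and 3.61, 4.12 and 4.45 in the control pool. With T3 it was at 4.32, 4.04 and 4.65 with TRα1, 4.31, 4.44 and 4.18 with TRβ1, and 4.03, 4.37 and 4.21 in the control pool. TRα1 minus control was 0.42 ± 0.19 (SE; limma adjusted p = 1) on vehicle and 0.14 with T3.

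PGR was lower with TRα1 than in the control pool on vehicle, at 3.31, 3.62 and 3.69 against 3.77, 3.90 and 3.89. These groups did not overlap, and TRβ1, at 3.60, 3.75 and 3.61, also lay below the control arrays. The TRα1 difference was −0.31 ± 0.13 (SE), with limma adjusted p = 0.856 without the block and 0.158 with it. With T3 the difference was −0.02. RORA was lower with TRα1 than control on T3, at 5.17, 5.56 and 5.44 against 5.55, 5.85 and 5.65, a difference of −0.29 ± 0.15 (SE; limma adjusted p = 1) with groups that overlapped.

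In the TRβ1 pool on vehicle, NR5A1 was above control by 0.27 ± 0.19 (SE), RARG by 0.24 ± 0.15 and HNF4G by 0.23 ± 0.13, all with limma adjusted p = 1 and overlapping groups. NR5A1 was at 7.10, 7.63 and 7.35 there, against the control values given above. Repeat 2 of NR5A1 was the highest in all 4 groups of the receptor pools, at 7.64 and 7.81 with TRα1 and 7.63 and 7.74 with TRβ1. With T3, TRβ1 was above control by 0.34 in PPARD and 0.25 in NR1H3 (limma adjusted p = 1 for both).

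Groups of receptor genes that did not overlap between pools were few. For TRα1 against control there were 3 on vehicle (NR2F6 higher, NR2E1 and PGR lower), beside 7.67% of all features, and 3 with T3 (NR2F6 higher, PPARG and NR2E1 lower), beside 10.1%. For TRβ1 against control there were 2 on vehicle (NR2E1 and PGR lower), beside 6.59%, and 1 with T3 (NR2F6 higher), beside 7.64%. For TRβ1 against TRα1 there were 3 on vehicle (NR4A1 higher, NR2F6 and NR3C1 lower), beside 5.47%, and 0 with T3, beside 5.85%. These comparisons share control or TRα1 arrays. A count of 3 is 9.68% of the 31 genes.

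The variation of each receptor gene was divided among repeat number, pool, T3, their combination and the rest. The repeat number held the largest share for 10 of the 31 genes, pool for 2 (NR2F6, 65.9%, and NR2E1, 35.5%), T3 for 2 (NR4A1, 45.3%, and PPARG, 43.4%) and the residual for 17. The median shares were 27.2% for repeat number, 11.7% for pool and 3.61% for T3, beside 37.3%, 8.06% and 1.81% over all features. These are raw shares of the sum of squares. A source with more degrees of freedom takes up more noise, and T3 has the fewest and the residual the most. Shares of different sources are therefore not comparable with each other. NR6A1 (GCNF), a germ cell repressor, and NR2C1 (TR2) had 78.7% and 76.7% with the repeat number. All arrays of repeat 1 lay below the later ones for NR5A2 and NR6A1. That is 6.45% of the receptor genes beside 9.42% of all features, and the opposite order was found for 0% and 8.53%.

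**Figure D5:**
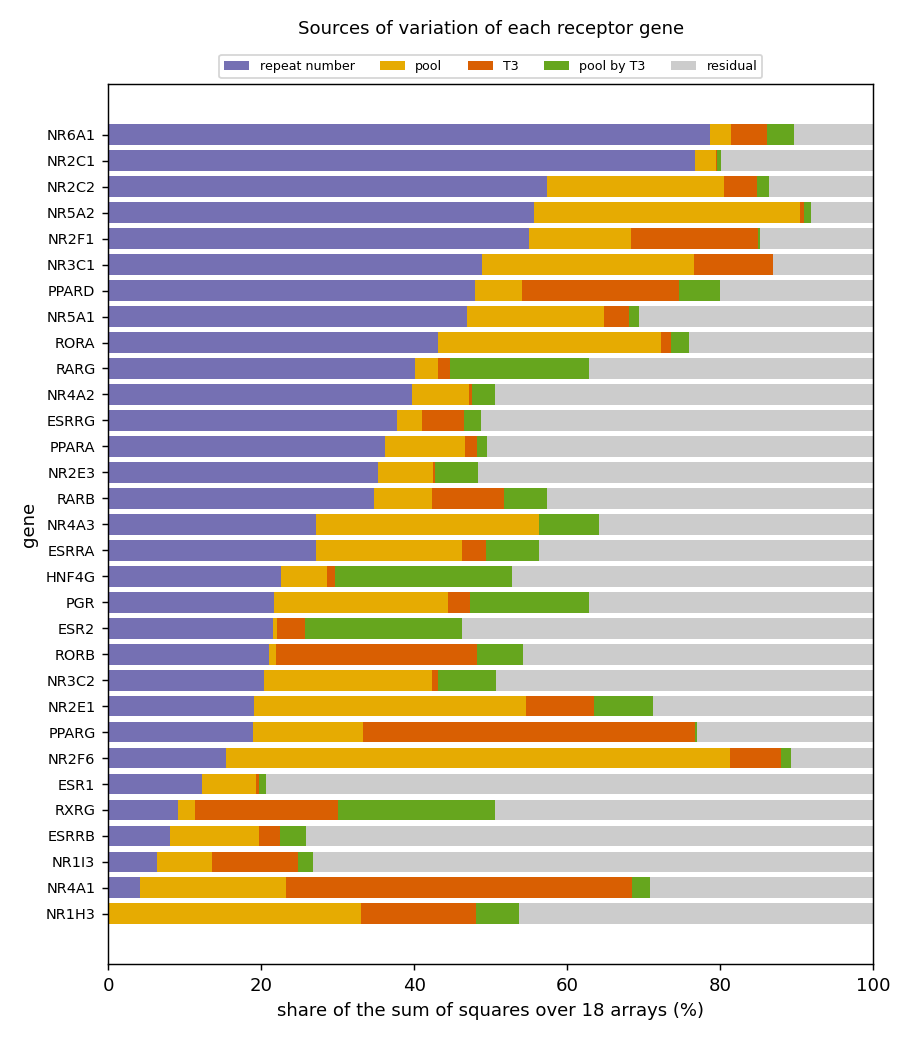
Share of each receptor gene's sum of squares over 18 arrays (%) that goes with repeat number, pool, T3, pool by T3 and the residual. NR6A1 and NR2C1 are mostly repeat number (78.7% and 76.7%), NR2F6 is mostly pool (65.9%), and the T3 share is largest for NR4A1 and PPARG.

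Known targets of these receptors were read from 9 lists, with 81 genes measured; ESRRA, a member, stands in 1 of the lists. In the mean of the 3 pools 5 of the 81 rose with T3 and 0 fell, 6.17% beside 0.423% of all features. With the block 10 rose and 1 fell (13.6% beside 1.69%). In single pools without the block the counts were 2 with TRα1 (2.47%), 0 with TRβ1 and 0 in the control pool; with the block they were 7, 5 and 2, all higher. Several of these genes are also known targets of thyroid hormone receptors, so the lists are not specific to the receptor that names them. The lists were chosen with earlier results of these data known. Their excess over all features is therefore not independent evidence. The median difference of the 81 genes was 0.02, beside −0.01 over all features.

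Among 11 of 14 PPAR targets measured, 2 rose. CPT1A, the rate-limiting enzyme for fatty acid entry into mitochondria, rose by 0.88 ± 0.11 (SE, limma adjusted p = 0.000508). ACSL1, which activates long-chain fatty acids, rose by 0.45 ± 0.09 (SE, limma adjusted p = 0.0389). CPT1A differed by 1.09 with TRα1, 0.98 with TRβ1 and 0.56 in the control pool.

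Among 11 of 12 corticosteroid receptor targets, 2 rose without the block. SCNN1A, which encodes the alpha chain of an epithelial sodium channel, rose by 1.30 ± 0.14 (SE; limma adjusted p = 0.00015), and SGK1, a kinase that regulates that channel, by 0.81 ± 0.11 (0.00094). With the block KLF9 (0.36, limma adjusted p = 0.00445) and ERRFI1 (0.24, 0.00609) rose as well. TSC22D3 (GILZ) and PER1, measured targets in the same list, had 0.003 and −0.02 and were not called.

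The ROR list had 8 of 8 genes measured, and G6PC, the catalytic subunit of glucose-6-phosphatase, rose by 0.87 ± 0.17 (SE; limma adjusted p = 0.0296). None of 9 of 12 PXR and CAR targets was called without the block, and with it CYP3A5 (0.58) and GSTA2 (0.77) rose, a cytochrome P450 and a glutathione transferase. NRIP1, a corepressor in the oestrogen and progesterone list (7 of 8 measured), rose by 0.29 with the block, and PPARGC1A, the coactivator PGC-1α in the list of estrogen-related receptor targets (8 of 10 measured), fell by 0.22 with the block. No gene was called with or without the block in the mean of the pools among 10 of 10 LXR targets, 8 of 10 retinoic acid targets or 9 of 10 targets of NR5A2 and HNF4.

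Between pools, TRα1 against control gave 0 higher and 2 lower targets of 81 on vehicle without the block (2.47%, beside 0.307% of all features). With the block it gave 3 higher and 3 lower (7.41%, beside 2.07%). With T3 the counts were 0 higher and 1 lower (1.23%, beside 0.433%), and 5 higher and 4 lower with the block (11.1%, beside 2.83%). For TRβ1 against control they were 0 on vehicle, and 2 higher and 1 lower with the block (3.7%, beside 0.735%). With T3 they were 1 higher (1.23%, beside 0.156%), and 4 higher and 1 lower with the block (6.17%, beside 0.871%). For TRβ1 against TRα1 they were 0 under both treatments, and 2 higher and 1 lower under each with the block (3.7%). Here too the lists were chosen with earlier results of these data known.

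Lower with TRα1 than control on vehicle without the block were NR0B2, the repressor SHP, by a difference of −0.63 (limma adjusted p = 0.0178), and ERRFI1 by −0.50 (0.025). With T3, TTR, which encodes transthyretin, was lower with TRα1 by −0.81 (limma adjusted p = 0.0245), and SGK1 was higher with TRβ1 than control by 1.03 (0.0313). With the block, the PPAR targets CPT1A and ACSL1 were higher with TRα1 than control on T3. CPT1A was higher by 0.75 (limma adjusted p = 0.126 without the block and 0.000638 with it) and ACSL1 by 0.62 (0.153 and 0.000829). No other PPAR target measured was called there. NRIP1 was higher by 0.47 (limma adjusted p = 0.219 and 0.00322), ABCG8, a sterol exporter, by 0.48 (0.208 and 0.0467) and CYP3A5 by 0.41 (1 and 0.038). CYP7A1, the rate-limiting enzyme of bile acid synthesis, was lower by −1.10 (limma adjusted p = 0.109 and 0.0171), NR0B2 by −0.40 (0.206 and 0.0433) and ERRFI1 by −0.40 (0.0848 and 0.00841). Several of these differences were also called on vehicle with the block. There ACSL1 was higher with TRα1 by 0.41 (limma adjusted p = 0.0214), NRIP1 by 0.37 (0.0214) and CYP3A5 by 0.51 (0.0137). TTR was lower there by −0.59 (0.000505). NR0B2, TTR and CYP7A1 stand in the list of NR5A2 and HNF4 targets. No other gene measured in that list was called for TRα1 against control in either fit. MTTP and APOC3 were higher with TRα1 under both treatments, MTTP by 0.42 on vehicle and 0.39 with T3. CYP7A1 had a mean level of 4.22, under the median over the tested features.

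Family genes that are not members were read for comparison, 8 of 12 with a feature. In the mean of the pools 2 of the 8 were called higher with T3 without the block, beside 0.423% of all features called. NR1D1 (REV-ERBα, a clock repressor) rose by 0.44 ± 0.05 (SE, limma adjusted p = 0.000508) and THRB by 0.45 ± 0.09 (0.0237). This list too was chosen with earlier results of these data known.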

How the data were processed

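The analysis used the 18 columns of the series' value table, deposited by the authors as log2 values of gene-level features, which the submitters' processing notes tie to RMA and R 2.7.1; other steps are not given in the sources used here. No column was outside the samples. Total RNA (200 ng) was labelled for Human Gene ST arrays, per the labels' protocols; the number of arrays limits the precision. The receptor genes and all gene lists were chosen with earlier results of these data known.

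All 20546 features with a gene symbol were fitted with limma 3.58.1 in R 4.3.3, as group means of 6 groups with 1 shared variance per feature, and adjusted by Benjamini-Hochberg within each contrast (threshold 0.05, two-sided). Symbols came from the platform annotation: 19158 features had 1 gene and 1388 several. Each receptor gene was read from its brightest single-gene feature. Values per array are given for genes called in any contrast, without or with the block, and for the 3 largest differences in each contrast; target genes are named where called, at most 4 per list. Genes whose groups do not overlap, or whose 9 pairs agree, were named after their values were seen. The repeat numbers paired the arrays: in all 45 pairs sharing a number the deviations from group means correlated at 0.259 or more. Pairs of different numbers and groups had a median of −0.483. Deviations within a group sum to 0, so that negative value follows from the positive ones and is not separate evidence. A fit with the repeat number as a block is therefore given beside the calls it changes among the receptor genes, and for the target lists by counts and examples. Promoter windows came from RefSeq, GRCh38.p14.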

Additional observations from a re-analysis of the deposited data

How the results depend on the processing

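With 3 arrays a group, 18 in all, no receptor gene was called in any of the 13 comparisons without the repeat number as a block, under any alternative that leaves the block out. With the replicate block, 1 receptor gene was called for T3 over the pools, 1 for TRα1 against control on vehicle and 2 with T3. Features called with the block numbered 137 (27 without) for T3 with TRα1, 98 (15) with TRβ1, 20 (2) in the control pool and 347 (87) over the pools. They numbered 6 (0) for the TRα1 response against control, 425 (63) on vehicle and 582 (89) with T3 for TRα1 against control, 151 (24) and 179 (32) for TRβ1, and 111 (0) and 124 (9) for TRβ1 against TRα1. Fitting only the arrays compared gave 6, 0 and 0 features for T3 with TRα1, TRβ1 and control, 13 and 30 for TRα1 against control on vehicle and T3, 0 and 0 for TRβ1 against control, and 0 for TRβ1 against TRα1 with T3. Testing all features gave 8 for T3 with TRβ1 and 19 for TRβ1 against control with T3. The filter on dim features gave 36, 57 and 15 for TRα1 against control on vehicle and T3 and TRβ1 against control on vehicle. Centring and scaling gave 2 for the TRα1 response, and repeats 2 and 3 gave 4 for T3 with TRβ1 and 3 for TRβ1 against TRα1 with T3. Leaving out 1 array gave ranges of 12 to 24 (T3, TRα1), 5 to 10 (T3, TRβ1), 2 to 3 (T3, control), 69 to 92 (pools), 0 to 1 (TRα1 response), 29 to 45 and 44 to 70 (TRα1 against control, vehicle and T3), 9 to 13 and 15 to 22 (TRβ1), and 0 to 2 and 1 to 8 (TRβ1 against TRα1). The cause was not tested.

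Combinations with the block were chosen after seeing the data. PPARG was called with an intensity trend (limma adjusted p = 0.0349), not with centring and scaling (−0.23, 0.0743), all features (0.0863) or repeats 2 and 3 (0.155), and lies under the dim filter. NR2F6 on vehicle and with T3 and NR5A2 with T3 were not called with repeats 2 and 3 (limma adjusted p = 0.205, 0.0891 and 0.0588), nor NR2F6 on vehicle with all features (0.0524).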
